A study of Mus musculus with 2 samples.

Results

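Retinoic acid is made, bound, sensed and broken down by a small set of proteins, and 10 of their genes were followed here in the ureter of mouse embryos: Rdh10, Dhrs3, Aldh1a1, Aldh1a2, Aldh1a3, Cyp26a1, Cyp26b1, Crabp1, Crabp2 and Rarb. They were chosen for their role in timing the differentiation of ureteric smooth muscle, by the gene name of each probe on the array. All 10 had probes, 11 of the 39429 probes in all, with Rarb measured by 2 and every other gene by 1. Each of the 11 was read from 1 spot per array and was well above background in all 4 RNAs, and the 10 genes were among 20507 tested.

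The RNAs came from dissected ureters of NMRI embryos at stage E14.5. The RNA labelled Gata2cKO was from embryos with the genotype Tbx18(cre/+);Gata2(fl/fl), in which 1 Tbx18 allele carries Cre recombinase and Gata2, which encodes a transcription factor of the GATA family, is floxed on both alleles. The control RNA was from Tbx18(+/+);Gata2(fl/?) embryos, with no Cre and 1 floxed copy of Gata2, the other copy being marked with a question mark in the label. Cre and the altered Tbx18 allele were therefore present in the RNA labelled Gata2cKO alone, and their effects cannot be told apart from those of the loss of Gata2. Tbx18 drives Cre in the mesenchyme around the ureter and not in its epithelium. On array 1 both RNAs were female, with the Gata2cKO RNA in Alexa Fluor 647 and the control RNA in 555, and on array 2 both were male with the dyes exchanged, so that the sexes and the orientation of the dyes cannot be told apart. The labels do not give the number of embryos behind each RNA. By limma, p-values and intervals rest in part on a gene's own spread between these 2 arrays. They rest more heavily on a typical spread taken from all genes tested (1 against 4.68 degrees of freedom). The targeted gene, Gata2, had log2 ratios of 0.33 and 0.54 on arrays 1 and 2 and was thus not lower with the Gata2cKO label, and the labels do not say whether its probe lies in the deleted part, so the direction of each result rests on the dyes in the labels. Tbx18 was at 0.65 and 0.15.

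Retinoic acid is made from retinol in 2 steps. Retinol dehydrogenases such as RDH10 yield retinal, a step that DHRS3 runs in reverse, and the retinal dehydrogenases of the ALDH1A family yield retinoic acid. Enzymes of the CYP26 family break it down, CRABP proteins carry it within the cell, and it acts on nuclear receptors, RAR paired with RXR, which sit on direct repeats in the promoters and enhancers of target genes. Cyp26a1 and Rarb are themselves classical targets with such a repeat next to their start sites, so their transcripts are often read as a gauge of the pathway. In the mouse ureter Aldh1a2 is known as the retinal dehydrogenase of the mesenchyme and Aldh1a3 as that of the epithelium.

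The sequences shown are the probe that gave the largest ratio among the 10 genes and the 2 receptor repeats found next to their start sites. The probe of Cyp26a1 is a 60-base oligonucleotide on the plus strand of chr19:37775566-37775625 (mm9), base 1320 onward of its transcript in the array's annotation, and it has 1 reading frame without a stop. The repeats were searched in the 300-base windows that RefSeq (GRCm38.p6) gives around start sites, 250 bases before to 50 after, which matched 7 of the 10 genes in 10 windows. The letters searched on both strands were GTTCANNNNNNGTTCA, GGTCANNNNNNGGTCA, GTTCANNNNNNGGTCA and GGTCANNNNNNGTTCA, the core of a direct repeat with a spacing known as DR5. Below, capitals mark the letters that matched, and each repeat is given with the bases around it, along the strand of the gene.
Cyp26a1 probe: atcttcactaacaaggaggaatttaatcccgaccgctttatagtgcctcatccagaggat
Cyp26a1 promoter repeat, chr19:37697769-37697798 (plus strand): ttaaagaTGAACtttgggTGAACtaatttg
Rarb promoter repeat, chr14:16575506-16575535 (minus strand): gggaaggGTTCAccgaaaGTTCActcgcat
The Cyp26a1 match lay 32 to 17 bases before the start site used for its window, in the opposite orientation to the gene, and the Rarb match 52 to 37 bases before its own. Both matched the first set of letters, and no window of the other members matched any. Rdh10, Aldh1a3 and Crabp2 had no window and were not searched. Of 32851 windows of this length in the genome, 81 (0.247%) held a match. Repeats with a spacing known as DR2 (GTTCANNNGTTCA, GGTCANNNGGTCA, GTTCANNNGGTCA and GGTCANNNGTTCA) matched 0 of the 10 windows and 0.399% of all. The 6-base GATA core (searched on both strands as AGATAA or AGATAG and as TGATAA or TGATAG) matched 2 of the 10, both of Aldh1a1, against 29.8% of all windows.

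The data showed 1 gene of retinoic acid breakdown far lower and 1 gene of its synthesis higher in the RNA labelled Gata2cKO, with the other 8 within a smaller range. Cyp26a1 had a mean log2 ratio of -2.02 and Aldh1a3 one of 0.84, while the other members lay between -0.33 and 0.29. In the authors' deposited table Aldh1a3 had the opposite sign, with a mean of -0.20. By limma over all 20507 genes, with an adjusted p of 0.05 as the threshold, 0 of the 10 members passed, against 0.0878% of all genes (0.0439% lower and 0.0439% higher), and 2 of the 10 had an unadjusted p under 0.05, against 7.17%. Cyp26a1 missed the threshold by the smallest margin (adjusted p = 0.0504 by limma). In the fit by probe 0 of the 11 passed, against 0.0585% of probes, and the unadjusted p was under 0.05 for the probes of the same 2 genes. With a variance prior that follows brightness and resists outliers, Cyp26a1 and Aldh1a3 passed (2 of 10, against 1.83% of all genes; 1 lower, against 1.01%, and 1 higher, against 0.814%). In size, 1 of the 10 was at least 1.5-fold lower on both arrays, against 0.439% of all genes, and 0 of the 10 were at least 1.5-fold higher on both, against 0.273%. On both arrays 3 members were higher (27% of all genes) and 4 lower (26.2%), and 3 had opposite signs (46.8%).

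**Figure D1:**
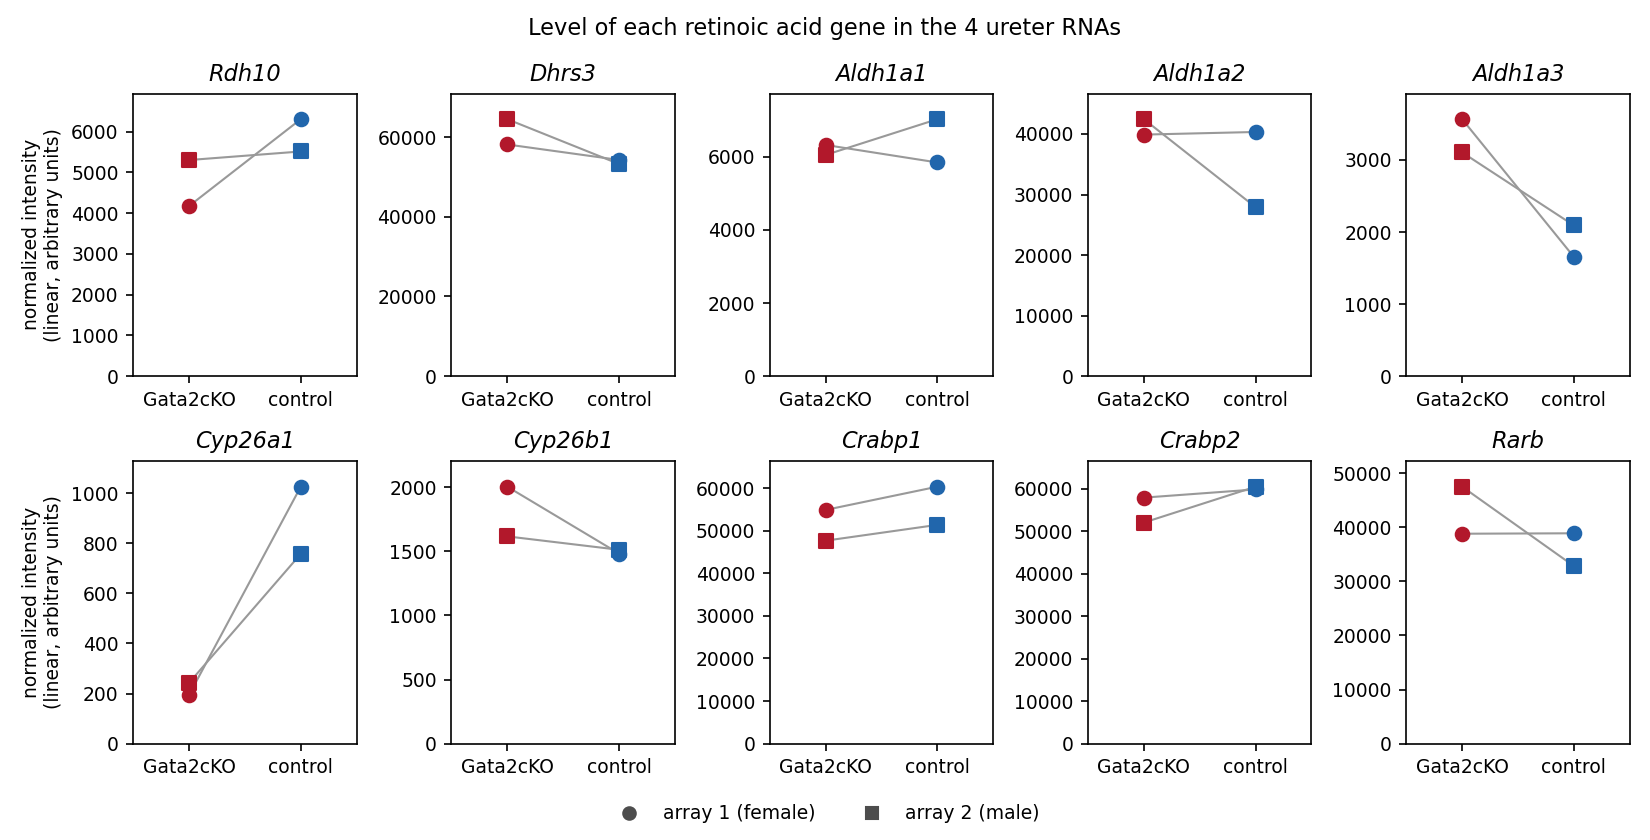
Normalized intensity of each retinoic acid gene (vertical axis, linear and starting at 0, a scale of its own for each probe) in the RNA labelled Gata2cKO (red) and the control RNA (blue), with circles for array 1 (female), squares for array 2 (male) and a line joining the 2 RNAs of an array. Both Cyp26a1 values of the Gata2cKO RNA (194.6 and 242.7) lie far below both of the control RNA (1026 and 758), and both Aldh1a3 values lie above.

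Breakdown of retinoic acid gave the largest value. Cyp26a1 encodes the cytochrome P450 that clears retinoic acid and that retinoic acid itself induces. Its normalized intensity, an arbitrary linear unit comparable between RNAs for 1 probe only, was 194.6 and 242.7 in the RNA labelled Gata2cKO on arrays 1 and 2, against 1026 and 758 in the control RNA. The groups did not overlap, and both Gata2cKO values were under the lower control value. The mean was 219 ± 34 in the RNA labelled Gata2cKO and 892 ± 190 in the control RNA (SD, n = 2 each). The log2 ratios of the arrays were -2.40 and -1.64, with a mean of -2.02 ± 0.535 (SD, n = 2; 95% interval by limma -2.49 to -1.55), which is 4.06-fold lower and the second lowest mean among the 10905 genes with the same sign on both arrays. Before normalization its spot read 248 over a local background of 69.5 and 170.2 over 32.5 in the RNA labelled Gata2cKO, against 788 over 33 and 962 over 66 in the control RNA. The probe was therefore read above background in every RNA, and the offset of 50 added before taking logs draws such dim ratios toward 0. Without that offset the mean ratio was -2.32 (adjusted p = 0.0297 by limma), and with the scanner software's own signals it was -2.59 (adjusted p = 0.00685 by limma). In these 2 settings 47 and 165 of the 20507 genes passed. With median centring in place of loess the mean ratio of Cyp26a1 was -2.03 and did not pass (adjusted p = 0.656 by limma), and 0 of the 20507 genes did. In the authors' deposited table the signed fold was -8.37 in the column of array 1 and -4.91 in that of array 2. It did not pass either (adjusted p = 0.117 by limma on the authors' deposited table), and there too 0 of the 20507 genes did.

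Cyp26b1, which encodes the related enzyme that clears retinoic acid in many embryonic mesenchymes, did not follow Cyp26a1. Its levels were 2003 and 1616 in the RNA labelled Gata2cKO, against 1482 and 1511 in the control RNA, on a probe at chr6:84521952-84522011 (mm9, minus strand). Both Gata2cKO values were above both control values, by little on array 2. The log2 ratio was 0.43 and 0.10 on the arrays, a mean of 0.27 ± 0.239 (SD, n = 2; adjusted p = 0.749 by limma), with an interval of -0.05 to 0.58. Within an array the log2 ratio of Cyp26a1 minus that of Cyp26b1 was -2.83 on array 1 and -1.74 on array 2 (mean -2.29 ± 0.774, SD, n = 2).

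The second step of synthesis was read from the 3 retinal dehydrogenase genes among the members. Aldh1a3, measured at chr7:73535785-73535844 (mm9, minus strand), had levels of 3566 and 3105 in the RNA labelled Gata2cKO, against 1654 and 2091 in the control RNA. The groups did not overlap, and the lower Gata2cKO value was above the higher control value. The log2 ratios of the arrays were 1.11 and 0.57, with a mean of 0.84 ± 0.380 (SD, n = 2; 95% interval 0.46 to 1.22), or 1.79-fold. It did not pass over all genes (adjusted p = 0.208 by limma) and passed with the prior that follows brightness (adjusted p = 0.00828 by limma). The direction depended on the source of the ratios. With the scanner software's signals the ratios were 1.14 and 0.62, whereas in the authors' deposited table the log2 of the signed fold was -0.12 and -0.29. Aldh1a3 was the member with the 41st highest mean among the 10905 genes of the same sign on both arrays.

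Aldh1a2, at chr9:71143931-71143990 (mm9, plus strand), had levels of 39901 and 42444 in the RNA labelled Gata2cKO, against 40333 and 27903 in the control RNA. Its groups overlapped, since the female control RNA lay between the 2 Gata2cKO values, and the male control RNA alone was low. The log2 ratio was accordingly -0.02 on array 1 and 0.61 on array 2 (mean 0.29 ± 0.439, SD, n = 2; adjusted p = 0.795 by limma). The scanner software's signals gave 0.11 and 0.49, and the authors' deposited table gave 0.40 and 1.11, all above 0. Aldh1a1, at chr19:20717764-20717823 (mm9, plus strand), had levels of 6326 and 6053 in the RNA labelled Gata2cKO, against 5847 and 7031 in the control RNA. The Gata2cKO values lay between the control values, and the ratios of 0.11 and -0.22 had opposite signs (mean -0.05 ± 0.233, SD, n = 2; adjusted p = 0.984 by limma), with an interval of -0.36 to 0.26. In the authors' deposited table Aldh1a1 was at -0.56 and -0.17. Within an array the log2 ratio of Aldh1a3 minus that of Aldh1a1 was 0.99 on array 1 and 0.79 on array 2. The log2 ratio of Aldh1a3 minus that of Aldh1a2 was 1.12 and -0.04. On array 2 these 2 genes thus had nearly the same ratio, though not the same level.

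**Figure D2:**
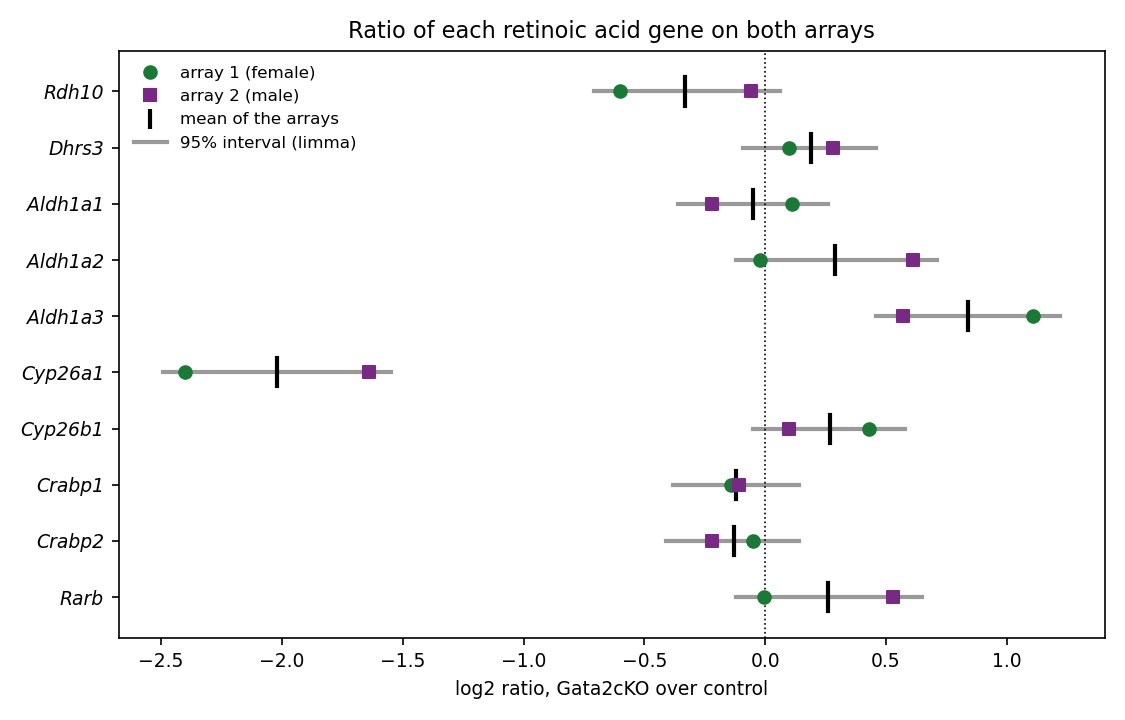
Log2 ratio of the RNA labelled Gata2cKO over the control RNA (horizontal axis) for each retinoic acid gene (rows), with circles for array 1 (female), squares for array 2 (male), a bar for the mean and a grey line for limma's 95% interval. The intervals of Cyp26a1 (-2.49 to -1.55) and Aldh1a3 (0.46 to 1.22) leave out 0, and those of the other 8 genes include it.

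The step before, between retinol and retinal, showed smaller differences. Rdh10, the main retinol dehydrogenase of the mouse embryo, had levels of 4174 and 5303 in the RNA labelled Gata2cKO, against 6305 and 5513 in the control RNA, from a probe at chr1:16122062-16122121 (mm9, plus strand). Both Gata2cKO values were lower, though on array 2 the RNAs were nearly level. The log2 ratios were -0.60 and -0.06 (mean -0.33 ± 0.381, SD, n = 2; adjusted p = 0.746 by limma), and in the authors' deposited table both were above 0, at 0.17 and 0.03. Dhrs3, which encodes the retinal reductase that returns retinal to retinol and is itself induced by retinoic acid, had levels of 58125 and 64469 in the RNA labelled Gata2cKO, against 54248 and 53232 in the control RNA (chr4:144517485-144517544, mm9, plus strand). Its values did not overlap, with both Gata2cKO RNAs above both controls. The log2 ratio was 0.10 and 0.28 (mean 0.19 ± 0.125, SD, n = 2; adjusted p = 0.8 by limma), and the authors' deposited table gave -0.09 and 0.10.

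The 2 binding protein genes stood close to 0. CRABP2 hands retinoic acid to its receptors in the nucleus, and CRABP1 binds it in the cytoplasm. Crabp1 (chr9:54616192-54616251, mm9, plus strand) had levels of 54873 and 47650.1 in the RNA labelled Gata2cKO, against 60325 and 51364 in the control RNA. Its groups overlapped, although the ratio was nearly the same on both arrays, -0.14 and -0.11 (mean -0.12 ± 0.0201, SD, n = 2; interval -0.38 to 0.14). Crabp2 (chr3:87757207-87757266, mm9, plus strand) had levels of 57879 and 52014 in the RNA labelled Gata2cKO, against 59807 and 60450.3 in the control RNA. Its groups did not overlap, with ratios of -0.05 and -0.22 (mean -0.13 ± 0.120, SD, n = 2; interval -0.41 to 0.14). Neither passed (adjusted p = 0.889 for Crabp1 and 0.885 for Crabp2 by limma), and in the authors' deposited table Crabp1 was above 0 in both columns (0.10 and 0.23).

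Rarb, the receptor gene that retinoic acid induces through the repeat shown above, was measured by 2 probes that lie 1281 bases apart in its transcript. The brighter one (chr14:17263367-17263426, mm9, minus strand) gave levels of 38793 and 47484 in the RNA labelled Gata2cKO, against 38874 and 32818 in the control RNA. As for Aldh1a2, the female RNAs were level and the male RNAs differed, so the groups overlapped. The log2 ratio was -0.003 and 0.53 (mean 0.26 ± 0.379, SD, n = 2; adjusted p = 0.795 by limma). The other probe (chr14:17264648-17264707, mm9, minus strand) gave levels of 15043 and 13622 in the RNA labelled Gata2cKO, against 13943 and 12544 in the control RNA, also overlapping. Its ratios were 0.11 and 0.12, a mean of 0.11 ± 0.00659 (SD, n = 2; adjusted p = 0.906 by limma over 25658 probes), smaller on array 2 than that of the brighter probe. For the brighter probe the scanner software's signals gave 0.10 and 0.41, and the authors' deposited table gave 0.22 and 0.65. The other probe was at 0.10 and 0.13 by the scanner software's signals, and in the authors' deposited table it was at 0.14 and 0.61, close to the brighter one. Among the 7 members with a promoter window, 2 held a receptor repeat, of which Cyp26a1 was thus far lower and Rarb was not lower.

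Counting over the members, levels in the RNA labelled Gata2cKO lay above both control values for 3 genes (Aldh1a3, Cyp26b1 and Dhrs3), against 19.5% of all genes, and below both for 3 (Cyp26a1, Rdh10 and Crabp2), against 18.9%. The other 4 overlapped. Aldh1a2, Dhrs3, Crabp1, Crabp2 and Rarb belonged to the brightest 25% of genes. Among these the arrays ran against each other (r = -0.572 across 5127 genes, which are not independent replicates), against r = 0.389 across the other 15380, and Cyp26a1 and Aldh1a3 were among those others, at brightness percentiles of 20.2 and 44.9. Whether the dyes bear on the ratios of the 5 bright members was not tested.

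The rest of the pathway was read from a list of 44 genes by role, the 10 members among them, of which 35 were tested. None of the 35 passed over all genes by limma, against 0.0878% of all genes. An unadjusted p under 0.05 was found for 4 of them, 2 being members, against 7.17% of all genes. The median log2 ratio of the list was -0.0438, against 0.00284 over all genes. Among carriers, Rbp4, the retinol carrier of blood, was at 0.46 and 0.40 on the arrays (mean 0.43 ± 0.0486, SD, n = 2; adjusted p = 0.366 by limma), and Stra6, its receptor, at 0.54 and 0.22 (mean 0.38). Of the 6 receptor genes 5 were below 0 on both arrays, against 26.2% of all genes. All but Rarb lay close to 0, from -0.07 for Rxrg to -0.23 for Rxra and -0.13 for Rarg. Among genes listed as targets, Meis2 was at -0.01 and 0.52, as level in the female RNAs and as different in the male RNAs as Rarb, while Rarres2 was at -0.15 and -0.16 and Tgm2 at -0.26 and -0.03. The coregulator gene Nrip1 was at 0.10 and 0.11. Aldh8a1, a further retinal dehydrogenase gene, was at 0.15, and Rdh12, a retinol dehydrogenase gene, at 0.06. The third breakdown gene, Cyp26c1, was not well above background on both arrays in either RNA and was not tested, and nor were Bcmo1, Rbp2, Adh7, Dhrs9, Rdh1, Cdx1, Hoxb1 and Stra8.

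**Figure D3:**
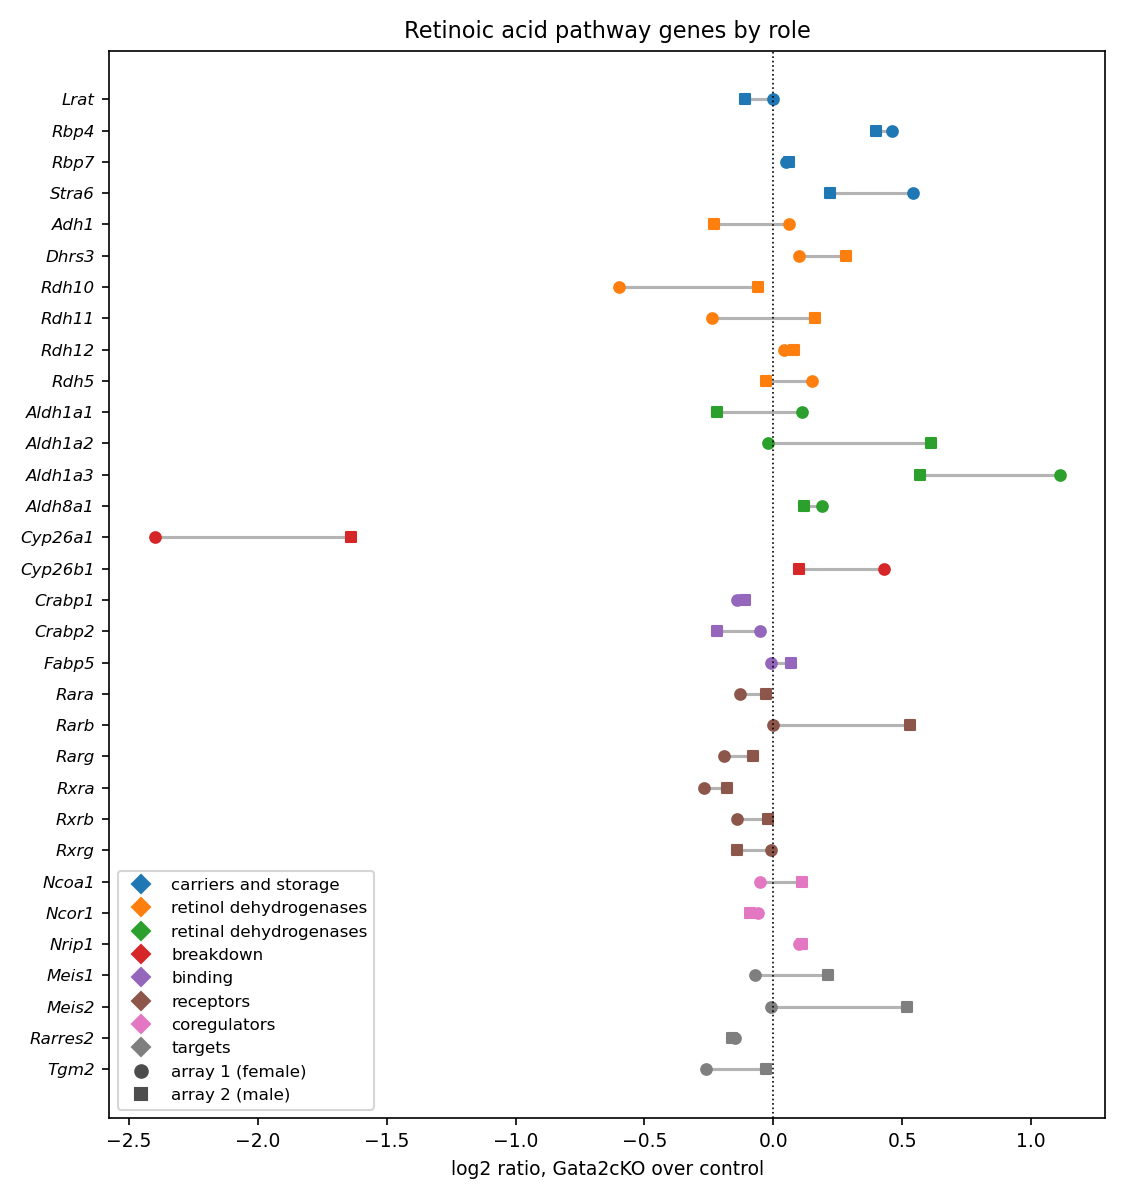
Log2 ratio of the RNA labelled Gata2cKO over the control RNA (horizontal axis) for 32 of the 35 tested genes of the retinoic acid pathway (rows, coloured by role), with circles for array 1 (female), squares for array 2 (male) and a line joining them. Cyp26a1 stands apart at -2.40 and -1.64 and Aldh1a3 is the highest at 1.11 and 0.57, while 23 of the 32 lie within 0.3 of 0 on both arrays.

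Nearness to Cyp26a1 was measured by Euclidean distance over the ratios of the 2 arrays, among genes with a proper symbol. Clone names, predicted genes and unnamed probes were left out. The nearest genes were Chgb (-2.30 and -1.82), Chga (-2.23 and -1.52) and Dbh (-2.08 and -1.29). Chga and Chgb encode granins of neuroendocrine secretory granules, and Dbh encodes the enzyme that makes noradrenaline. All 3 belong to a list of 16 markers of neurons, chromaffin cells and glia, with a median log2 ratio of -0.906. Of the 16, 15 were lower on both arrays, against 26.2% of all genes, and 2 passed by limma as lower, against 0.0439%. The summed level of that list was 35227 and 34971 in the RNA labelled Gata2cKO, against 74949 and 58369 in the control RNA. Such sums add probes whose intensities are not comparable with each other, and the brightest probes weigh most. None of the 16 genes was at background on both arrays in either RNA, though genes were tested only if well above background on both arrays in either RNA. In such bulk RNA, fewer cells of a type and less RNA per cell cannot be told apart, and the part of those cells in the Cyp26a1 ratio was not tested. The 8 smooth muscle markers were also lower on both arrays, against 26.2% of all genes. Their median was -0.77, with means from -1.13 to -0.11. Their summed levels were 58308 and 55087 in the RNA labelled Gata2cKO, against 76561 and 80887 in the control RNA. The 6 macrophage markers were lower on both arrays too (median -0.369). In each of these 2 lists 0 genes passed by limma as lower, against 0.0439% of all genes. Of 4 adrenal and gonad markers 1 was higher and 1 lower on both arrays, with summed levels of 1803 and 1661 in the RNA labelled Gata2cKO, against 1718 and 1786 in the control RNA. Markers of the labelled tissue were present, with the 8 of ureteric mesenchyme at summed levels of 241626 and 260520.4 in the RNA labelled Gata2cKO, against 246234 and 227887 in the control RNA.

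Among genes with a proper symbol, those nearest to Aldh1a3 were Cldn4 (1.16 and 0.58), Wif1 (1.06 and 0.49) and Ackr1 (0.98 and 0.53). Cldn4 is a tight junction gene of the urothelium, Wif1 encodes a secreted Wnt inhibitor, and Ackr1 encodes an atypical chemokine receptor. Of 16 urothelial markers 10 were higher on both arrays (27% of all genes) and 6 had opposite signs (46.8%). Their median was 0.172, and none passed by limma (0.0878% of all genes). Their summed level, in which the brightest probes again weigh most, was 296711 and 330032 in the RNA labelled Gata2cKO. It was 257217 and 304254 in the control RNA, so that the groups overlapped. None of the 16 was at background on both arrays in either RNA, though here too genes were tested only if well above background on both arrays in either RNA. The part of the epithelium in the Aldh1a3 ratio was not tested. Likeness over 2 arrays is a description of these values.

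**Figure D4:**
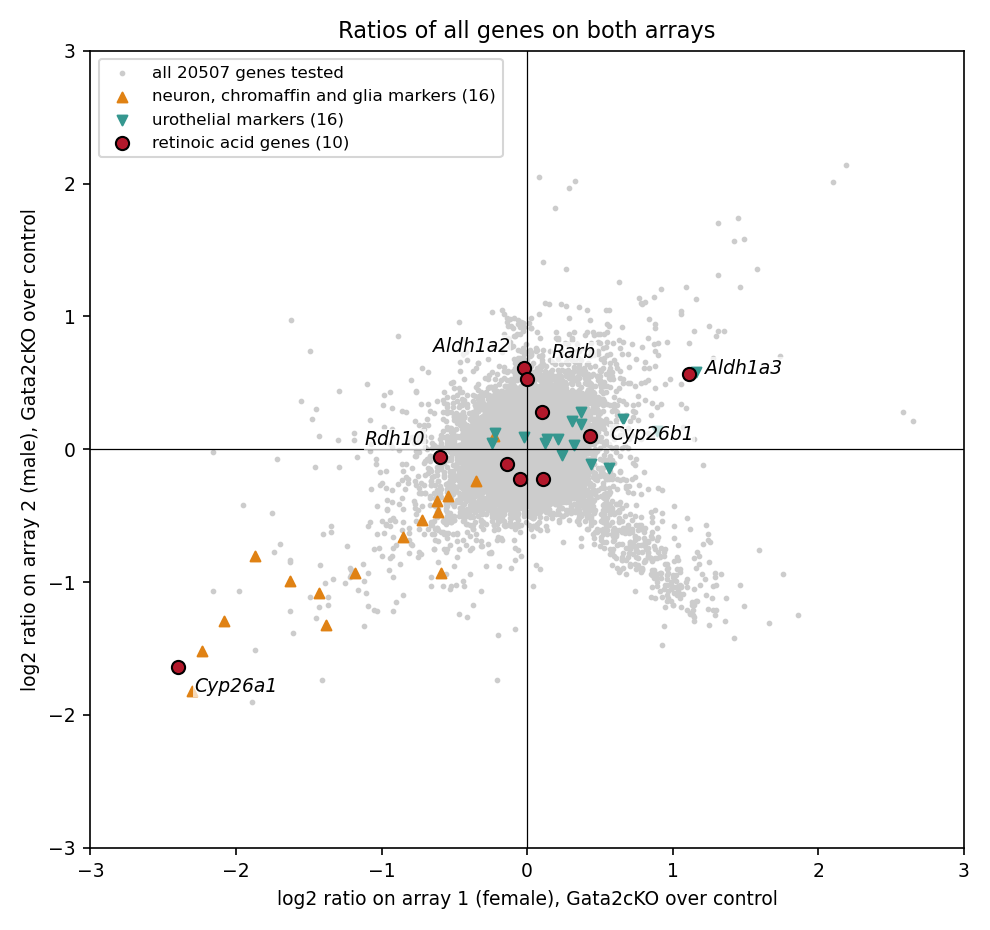
Log2 ratio of the RNA labelled Gata2cKO over the control RNA on array 1 (horizontal axis) and on array 2 (vertical axis) for all 20507 genes tested (grey), the 10 retinoic acid genes (red circles), 16 markers of neurons, chromaffin cells and glia (orange, pointing up) and 16 urothelial markers (green, pointing down). Cyp26a1 lies beside the lowest of the neuronal and chromaffin markers and Aldh1a3 beside the highest urothelial marker, Cldn4.

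The source of the ratios mattered for several members. The authors' deposited table is a signed fold per probe whose making is not stated, and across all probes it correlated with the ratios used here at r = 0.443 on array 1 and r = 0.376 on array 2. Cyp26a1 was lower in every source and on both arrays, with means from -2.68 (authors' deposited table) to -2.02. All sources are readings of the same 2 arrays, and the direction of the authors' deposited table was itself read from its correlation with the loess ratios. Aldh1a2 and Rarb had means above 0 in every source, up to 0.75 and 0.44 in the authors' deposited table. Rdh10, Aldh1a3 and Crabp1 had the opposite sign in that table, at 0.10, -0.20 and 0.16. Among the settings computed from both scanner files together, all 10 members kept the sign of their mean, whereas on array 1 alone Aldh1a1 (0.11), Aldh1a2 (-0.02) and Rarb (-0.003) had the opposite sign.

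**Figure D5:**
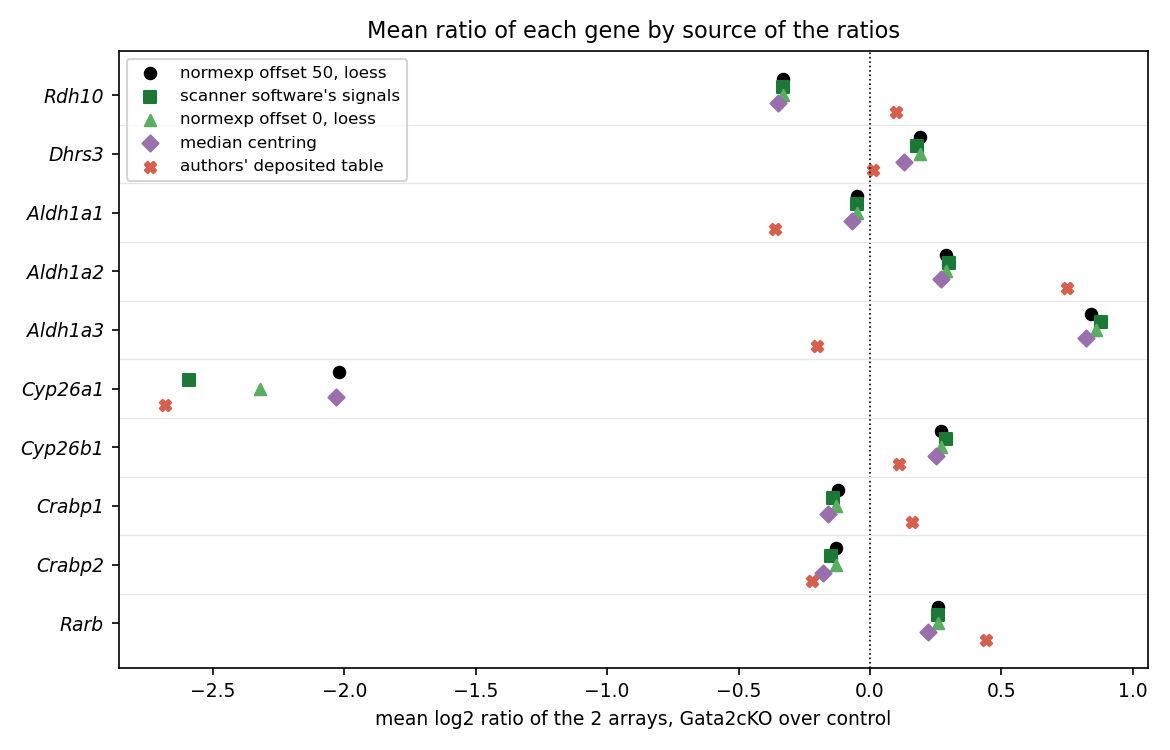
Mean log2 ratio of the 2 arrays, Gata2cKO over control (horizontal axis), for each retinoic acid gene (rows) from 5 sources of the ratios (symbols). The values from the scanner files lie together for 9 of the genes and spread between -2.59 and -2.02 for Cyp26a1, and those of the authors' deposited table lie across 0 from them for Rdh10, Aldh1a3 and Crabp1.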

How the data were processed

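Total RNA of dissected ureters was amplified and coupled to 1 of 2 dyes, per the labels' protocols. Per the file headers, the arrays were read by the authors with Agilent Feature Extraction 10.7.3.1, with probes placed on mm9. The deposited files of the scanner hold spot signal and local background as linear intensity, not normalized, and the log10 of red over green signal after background subtraction and dye normalization by the software. The authors' deposited value table holds a score that reads as a signed fold (median 1). Its making was not stated, and its direction, Gata2cKO over control, was read from its correlation with the loess ratios below.

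Background was corrected by normexp (offset 50) and ratios by loess (span 0.3) in limma 3.58.1 (R 4.3.3), leaving out control spots and outlier spots (255 and 178). The sign of array 2 was turned to give Gata2cKO over control. Probes well above background on both arrays in either RNA were kept (25658 of 39429), and each gene took its brightest one. The mean ratio was set against 0 by lmFit and eBayes (two-sided, Benjamini-Hochberg), with 1 residual degree of freedom and a prior worth 4.68 (prior SD 0.163). Levels per RNA came from loess and Aquantile. RefSeq names were found for 26412 probes by accession, and the file's names served for 13017. No mm9 annotation was used here, and probes were not assigned to exons. No spot was saturated. The median signal on arrays 1 and 2 was 754 and 428 for the Gata2cKO RNA and 433 and 754 for the control RNA, 66% to 69.4% of spots were well above background, and the number of arrays limits the precision.

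Members, lists and tests were chosen with earlier results of these data known. Genes named beyond the members are, per role, the 2 that moved most with 1 sign on both arrays, the 3 nearest to Cyp26a1 and to Aldh1a3, Gata2 and Tbx18 as a check of the label, and up to 2 markers of each cell type list, of which not all are printed. The nearest genes were sought among proper symbols only. Meis2 and Rxrg were named after their values were seen. Some genes of the pathway list are not reported here. Alternatives were the scanner software's signals, median centring, offset 0, no filter, the deposited table, a trended and robust prior, probe means and each array alone. Functions were tested on simulated data.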

Additional observations from a re-analysis of the deposited data

Results flagged for a closer look

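For 3 members the log2 ratio had opposite signs on the female and the male array, a difference between the sexes that was not tested and that cannot be told apart from dye orientation. Aldh1a1 was at 0.11 on the female array and -0.22 on the male array. Aldh1a2 was at -0.02 on the female array and 0.61 on the male array. Rarb was at -0.003 on the female array and 0.53 on the male array. For Aldh1a2 and Rarb the female value was close to 0, and opposite signs were found for 46.8% of all genes tested. Aldh1a2 and Rarb belonged to the brightest 25% of genes, of which 58.1% had opposite signs. The opposite signs belong to the loess ratios. In the authors' deposited table each of the 3 had 1 sign on both arrays (Aldh1a1 at -0.56 and -0.17, Aldh1a2 at 0.40 and 1.11, Rarb at 0.22 and 0.65). With the scanner software's signals Aldh1a2 (0.11 and 0.49) and Rarb (0.10 and 0.41) did too, and Aldh1a1 (0.09 and -0.19) did not.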

How the results depend on the processing

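The count of members past an adjusted p of 0.05 was 0 of 10 genes and 0 of 11 probes, and 0 of the 35 pathway genes tested. It was 1, Cyp26a1 each time, for genes, probes and pathway alike with the scanner software's signals (adjusted p = 0.00685 by limma), with offset 0 (0.0297), and with no filter on detection (0.0283), 1 for genes and pathway over probe means (0.0493), and 2 with the trended and robust prior (Cyp26a1, adjusted p = 0.0027, and Aldh1a3, 0.00828). It stayed at 0 with median centring and in the authors' deposited table. Over all these settings the adjusted p of Cyp26a1 ran from 0.0027 to 0.656. Across all genes the settings called 18 (as reported), 165 (scanner software's signals), 0 (median centring, 492 at an unadjusted p under 0.05), 47 (offset 0), 54 (no filter), 0 (deposited table, 972 unadjusted), 375 (trended and robust) and 23 (probe means). The count with no filter is out of 31819 genes and the others are out of 20507. The median of the pathway list, -0.0438, was -0.068 with median centring, -0.018 with no filter, -0.0126 over probe means and 0.0072 in the deposited table, and -0.0127 to -0.0244 with 1 array left out. The authors' deposited table reversed Rdh10 (0.10), Aldh1a3 (-0.20) and Crabp1 (0.16), and the cause was not tested. No paired analysis was possible because the 2 arrays form 1 group, in which each ratio already sets 2 RNAs of the same sex side by side. With 1 array left, a gene has a value and no test. The dimmest member, Cyp26a1, is the one whose size moved with the offset.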
